A study of Mus musculus with 23 samples.

Results

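The levels of 4 gene records were followed across 23 libraries of mouse hippocampus: the haemoglobin records Hba-a1, Hbb-b1 and Beta-s, and Alas2, the red cell enzyme of haem synthesis. They were taken by symbol from a table of 13766 gene records, and all 4 passed the filter on low values that the table carries. They were picked because earlier results of these data showed them high in the XY animals with ovaries and moving together. Their levels, group differences and co-variation are therefore given as descriptions. Where a fit over all records also called these 4, the count is printed with its background and carries no weight as evidence.

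Haemoglobin is a tetramer of 2 alpha and 2 beta chains, each holding a haem group that binds oxygen. In the adult mouse the alpha chains come from the neighbouring genes Hba-a1 and Hba-a2, and the beta chains from a neighbouring pair that the C57BL strains carry as Hbb-bs and Hbb-bt. Haem synthesis starts in the mitochondrion with 5-aminolevulinate synthase, which has an erythroid form encoded on the X chromosome by Alas2 and a housekeeping form encoded on an autosome by Alas1. Maturing red cells keep globin and Alas2 messenger RNA after losing the nucleus, so these transcripts mark young red cells in blood, and globin transcripts have also been described in neurons and glia.

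The animals came from the FCG model on a C57Bl/6J background, in which the testis-determining gene Sry has been lost from the Y chromosome and is carried as a transgene on an autosome, so that sex chromosomes and gonads are inherited apart. The 5 XXF and 6 XYF animals had ovaries and no Sry, the 6 XXM and 6 XYM animals had testes from the Sry transgene, and the first 2 letters of each group name give its sex chromosomes. Tissue was collected at about 12 months of age after cervical dislocation and decapitation, and the protocols name no perfusion, so any blood left in the vessels would be part of a sample. Cages were assigned at weaning from the look of the genitalia, so the gonad and the company in the cage cannot be told apart. Nor can the gonad and the Sry transgene, which only the animals with testes carried.

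Each library is 1 hippocampus from 1 animal, and its depth was 10257751 to 36078221 estimated counts, with a median of 21831384. Levels are given as CPM, counts scaled to a common library size. Levels of Xist, the RNA of the inactive X, matched the labels in every library but XYF replicate 4, which had 94.1 CPM against at most 2.86 CPM in the other XY libraries and at least 936 CPM in the XX libraries. The 4 Y genes used as a check matched the labels in all 23 libraries. Choroid plexus genes stood apart between libraries of every group, with a sum of 56.1 to 3438 CPM. All 10 hippocampal and neuronal marker genes checked were present, from Zbtb20 at a mean of 20.5 CPM to Snap25 at 1610 CPM.

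In the authors' mm10 coordinates Hba-a1 (gene 15122) lies on chromosome 11 from 32283672 to 32284486 on the plus strand. Beta-s (gene 100503605), the adult beta chain gene that RefSeq calls Hbb-bs, lies on chromosome 7 from 103826523 to 103827928 on the minus strand. The Hbb-b1 record (gene 15129) lies beside it, from 103812528 to 103813923, and carries the position and Ensembl identifier that GENCODE gives to Hbb-bt. Alas2 (gene 11656) lies on chromosome X from 150547417 to 150570622 on the plus strand. Because the 4 transcripts moved together across libraries, the 250 bases before the RefSeq start site (build GRCm38.p6) are shown for the 3 records with a RefSeq promoter entry, Hba-a1 at chr11:32283422-32283671, Beta-s at chr7:103827929-103828178 on the minus strand and Alas2 at chrX:150547167-150547416. Capitals mark 4 short motifs searched on both strands: GATAA (reverse TTATC), read by GATA factors; CACCC (reverse GGGTG), read by Krüppel-like factors; CCAAT (reverse ATTGG); and the TATA box letters TATAA (reverse TTATA).
Hba-a1: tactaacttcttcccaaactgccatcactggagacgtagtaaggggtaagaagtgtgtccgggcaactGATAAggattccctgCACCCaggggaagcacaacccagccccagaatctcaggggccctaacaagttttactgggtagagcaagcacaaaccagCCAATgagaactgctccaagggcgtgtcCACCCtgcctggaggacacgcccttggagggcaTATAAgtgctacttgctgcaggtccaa
Beta-s: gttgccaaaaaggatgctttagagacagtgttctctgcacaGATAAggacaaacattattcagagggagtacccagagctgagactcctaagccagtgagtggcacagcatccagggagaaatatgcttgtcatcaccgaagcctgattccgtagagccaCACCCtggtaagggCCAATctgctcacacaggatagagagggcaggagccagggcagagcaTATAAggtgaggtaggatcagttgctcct
Alas2: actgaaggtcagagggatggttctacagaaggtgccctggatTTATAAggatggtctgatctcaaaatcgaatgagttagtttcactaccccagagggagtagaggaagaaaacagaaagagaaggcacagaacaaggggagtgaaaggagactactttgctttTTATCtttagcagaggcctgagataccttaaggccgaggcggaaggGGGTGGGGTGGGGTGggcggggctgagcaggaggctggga

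Both globin windows held all 4 motifs, with TATAA nearest the start and GATAA farthest from it. In Hba-a1 the first base of TATAA was 27 bases before the start, CACCC 60 and 167 bases before it, CCAAT 88 and GATAA 182. In Beta-s these distances were 29 for TATAA, 76 for CCAAT, 90 for CACCC and 209 for GATAA. The Alas2 window held TTATC 86 bases before the start and a run of GGGTG at 40, 35 and 30 bases, with TTATAA, in which TTATA and TATAA overlap, at 208 bases and no CCAAT. Among 32851 RefSeq windows of the same length, 22.6% held GATAA, 52% CACCC, 33.8% CCAAT and 22.8% TATAA on either strand, and 0.968% held all 4. A match is a run of letters and was not read as a bound site.

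All 4 transcripts were highest in the XYF group and lowest in the XYM group, with XXF and XXM between. In bulk tissue, fewer cells carrying a transcript and less of it per cell cannot be told apart. Hba-a1, an alpha chain gene, measured 100.8, 103.4, 92.9, 87.8 and 42.4 CPM in the XXF libraries. In the XXM libraries it ran from 48.6 to 88.3 CPM with a median of 72.4 CPM, in the XYF libraries from 81.8 to 194.6 CPM with a median of 125.1 CPM, and in the XYM libraries from 47.4 to 104.3 CPM with a median of 55.9 CPM. The XYF and XYM ranges overlapped through a single library on each side, XYF replicate 1 at 81.8 CPM and XYM replicate 1 at 104.3 CPM. Group means were 134.9 ± 45.1 CPM (SD, n = 6) in XYF, 85.5 ± 24.9 CPM (n = 5) in XXF, 69.9 ± 13.9 CPM (n = 6) in XXM and 63.5 ± 21.3 CPM (n = 6) in XYM.

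Hbb-b1, the less abundant of the beta chain records, measured 71.0, 68.4, 84.0, 73.3 and 25.2 CPM in the XXF libraries. Its lowest, median and highest levels were 38.1, 52.5 and 60.1 CPM in XXM, 57.5, 105.2 and 199.1 CPM in XYF, and 26.9, 40.1 and 91.8 CPM in XYM. XYF replicate 1 was again the low XYF library and XYM replicate 1 the high XYM library. The means were 118.6 ± 49.8 CPM (SD, n = 6) in XYF, 64.4 ± 22.7 CPM (n = 5) in XXF, 50.6 ± 8.03 CPM (n = 6) in XXM and 46.8 ± 23.8 CPM (n = 6) in XYM.

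Beta-s was the most abundant of the 4, with 114.4, 105.0, 112.0, 105.3 and 41.0 CPM in the XXF libraries. It ran over 62.9, 76.7 and 99.2 CPM (lowest, median, highest) in XXM, 88.0, 152.1 and 252.4 CPM in XYF, and 45.8, 68.0 and 124.7 CPM in XYM. A single XXF library, replicate 5, lay far below the other 4, as it did for Hba-a1 and Hbb-b1. Means were 167.4 ± 59.9 CPM (SD, n = 6) in XYF, 95.5 ± 30.8 CPM (n = 5) in XXF, 79.7 ± 12.9 CPM (n = 6) in XXM and 74.5 ± 27.0 CPM (n = 6) in XYM.

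Alas2, which makes the first intermediate of haem in red cell precursors, was present at much lower levels, on 31.0 to 384.8 estimated counts per library. It measured 6.35, 6.10, 6.42, 7.01 and 2.49 CPM in the XXF libraries. The lowest, median and highest levels were 2.95, 5.46 and 6.86 CPM in XXM, 6.67, 10.9 and 19.3 CPM in XYF, and 2.49, 4.29 and 8.81 CPM in XYM. Its means were 12.3 ± 4.64 CPM (SD, n = 6) in XYF, 5.67 ± 1.81 CPM (n = 5) in XXF, 5.20 ± 1.28 CPM (n = 6) in XXM and 4.62 ± 2.26 CPM (n = 6) in XYM. The order of the groups was that of the globin records, and the 3 lower groups lay within an SD of each other.

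**Figure D1:**
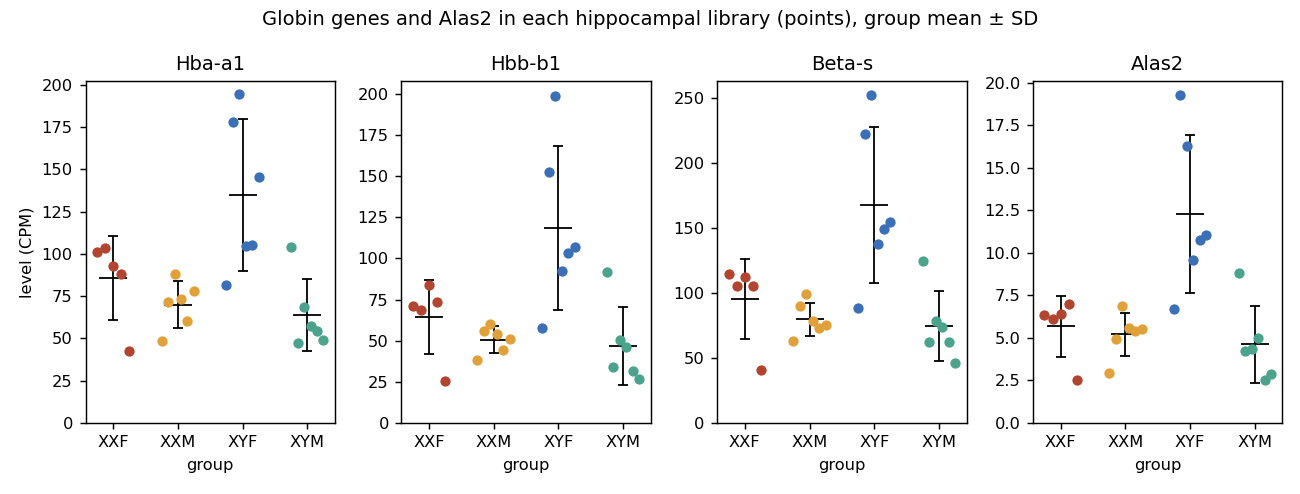
Levels of Hba-a1, Hbb-b1, Beta-s and Alas2 (vertical axes, CPM, each from 0) in the XXF, XXM, XYF and XYM libraries. Points are libraries in replicate order from left to right, the long bar is the group mean and the whiskers are ± SD; XYF is the high group in each panel, with 1 low XYF library, 1 high XYM library and 1 low XXF library recurring across genes.

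The recurrence of libraries can be counted. For each of the 4 records, XYF replicates 2 to 6 held ranks 19 to 23 of the 23 libraries and XYM replicate 1 held rank 18. XXF replicate 5 was the lowest library for the 3 globin records and the second lowest for Alas2, below which came XYM replicate 5 only. In every record 5 of 6 XYF libraries lay above all XYM libraries, 5 of 6 above all XXM libraries and 5 of 6 above all XXF libraries. Complete separation of XYF above XYM, which none of the 4 showed, occurred in 0.182% of all records, of XYF above XXM in 0.523% and of XYF above XXF in 0.552%. That is a stricter event, and the share of all records with 5 of 6 libraries above was not computed. The 5 of 6 counts therefore have no background here, and nothing is read from them.

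The spread over libraries was wide. From the lowest to the highest library Hba-a1 differed 4.59-fold, Hbb-b1 7.90-fold, Beta-s 6.16-fold and Alas2 7.73-fold. After removal of group means the SD of log2 CPM was 0.44 for Hba-a1, 0.57 for Hbb-b1, 0.49 for Beta-s and 0.55 for Alas2, higher than in 94.9%, 98.1%, 96.3% and 97.7% of all records. Alas1, the housekeeping synthase, ran only from 59.1 to 73.0 CPM over all libraries.

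Per length, the globin messages were far above Alas2. In the XYF group, CPM per kilobase of transcript was 266.5 ± 95.3 for Beta-s, 193.0 ± 64.5 for Hba-a1, 168.7 ± 70.9 for Hbb-b1 and 6.03 ± 2.28 for Alas2 (SD, n = 6), against 19.4 ± 1.01 for Alas1. In the XYM group the same scale gave 118.7 ± 43.1 for Beta-s, 90.9 ± 30.5 for Hba-a1, 66.6 ± 33.8 for Hbb-b1 and 2.27 ± 1.11 for Alas2 (n = 6). These levels assume the lengths of GENCODE transcripts (628 bases for Beta-s, 699 for Hba-a1, 703 for Hbb-b1 and 2037 for Alas2). Alas1 was thus the more abundant synthase transcript in all 4 groups, also in XYF.

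The crossed design separates the effect of the sex chromosomes from that of the gonad, and differences are given as log2 values from edgeR with an approximate standard error (SE). Between the XY groups, XYM minus XYF was -1.08 ± 0.22 for Hba-a1, -1.33 ± 0.28 for Hbb-b1, -1.16 ± 0.24 for Beta-s and -1.40 ± 0.28 for Alas2. Between the XX groups, XXM minus XXF was -0.29 ± 0.23 for Hba-a1, -0.36 ± 0.29 for Hbb-b1, -0.27 ± 0.25 for Beta-s and -0.15 ± 0.29 for Alas2. Testes went with lower levels than ovaries on both backgrounds, by several SE in XY animals and by amounts near or under the SE in XX animals.

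Compared by sex chromosomes among animals with ovaries, XYF minus XXF was 0.65 ± 0.23 for Hba-a1, 0.87 ± 0.30 for Hbb-b1, 0.80 ± 0.25 for Beta-s and 1.09 ± 0.29 for Alas2. Among animals with testes, XYM minus XXM was -0.13 ± 0.22 for Hba-a1, -0.11 ± 0.28 for Hbb-b1, -0.10 ± 0.24 for Beta-s and -0.16 ± 0.28 for Alas2, each within its SE. These comparisons share groups with those by gonad and are not separate evidence.

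**Figure D2:**
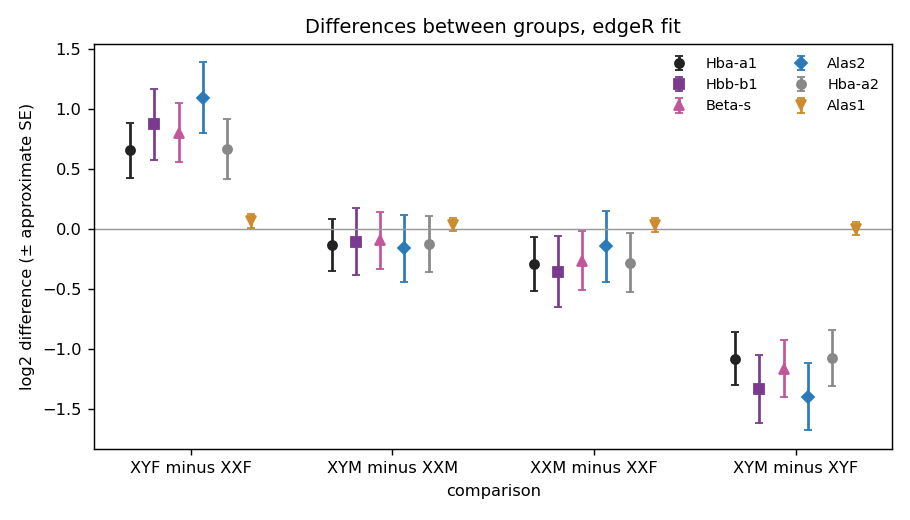
Differences between groups (vertical axis, log2, ± approximate SE from edgeR) for the 4 records and, for comparison, Hba-a2 and Alas1, in the 4 comparisons on the horizontal axis. The globin records and Alas2 lie above 0 for XYF minus XXF and below -1 for XYM minus XYF, near 0 for XYM minus XXM and slightly below 0 for XXM minus XXF, while Alas1 stays near 0 in each.

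Averaged over gonads, the sex chromosome effect (XY minus XX) was 0.26 ± 0.16 for Hba-a1, 0.38 ± 0.20 for Hbb-b1, 0.35 ± 0.17 for Beta-s and 0.47 ± 0.20 for Alas2. Without XYM replicate 1 it was 0.16 for Hba-a1, 0.22 for Hbb-b1, 0.25 for Beta-s and 0.31 for Alas2. Averaged over sex chromosomes, the gonad effect (testes minus ovaries) was -0.69 ± 0.16 for Hba-a1, -0.84 ± 0.20 for Hbb-b1, -0.71 ± 0.17 for Beta-s and -0.77 ± 0.20 for Alas2. The interaction, the gonad difference in XY less that in XX, was -0.79 ± 0.32 for Hba-a1, -0.98 ± 0.41 for Hbb-b1, -0.90 ± 0.34 for Beta-s and -1.25 ± 0.41 for Alas2.

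A record was called at an edgeR adjusted p under 0.05 over all 13766. All 4 records were called lower in XYM than in XYF, where 0.225% of all records were called, each of them lower in XYM. None of the 4 was called for the sex chromosome effect (0.283% of all records called), the gonad effect (0.16%), XYF minus XXF (0.291%) or XYM minus XXM (0.116%). No record of any gene was called for the interaction by edgeR or DESeq2 (444 had an unadjusted edgeR p under 0.05), nor for XXM minus XXF by edgeR (1061 had an unadjusted p under 0.05). For the gonad effect DESeq2, in place of edgeR, called 98 records or 0.712%, among them the 3 globin records but not Alas2. With edgeR all 4 were called lower for the gonad effect without XXF replicate 5 (85 records called in all) or without XYM replicate 1 (49), and the 3 globin records without XYF replicate 1 (42). Since the records were picked on these values, nothing is read from their counts beside the background. The 4 calls between the XY groups also depended on single libraries: 0 remained without XYF replicate 2, XYF replicate 3 or any of XYM replicates 2, 4, 5 and 6, 2 without XYF replicate 6 and 3 without XYF replicate 5 or XYM replicate 3. Without XYF replicate 4, the library with Xist reads, all 4 were called.

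The records moved together between animals of the same group. With group means removed, the correlation of log2 CPM over the 23 libraries was 0.98 for Hbb-b1 and Beta-s, 0.94 for Hba-a1 with either of them, 0.89 for Alas2 with Hba-a1, 0.93 for Alas2 with Hbb-b1 and 0.92 for Alas2 with Beta-s. These are descriptions over libraries that share 1 preparation per animal. For Alas1 the values were 0.31 with Hba-a1, 0.18 with Hbb-b1, 0.18 with Beta-s and 0.28 with Alas2. Of the 100-base windows of the Alas2 transcript, 0 occurred in Hba-a1, Hba-a2, Hbb-bs or Hbb-bt. The globin score, the mean log2 CPM of the 3 haemoglobin records, had a correlation of 0.961 with Alas2 over all libraries (Spearman 0.949), 0.927 within groups (Spearman 0.919), and 0.943 over all libraries without the 2 farthest in score.

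**Figure D3:**
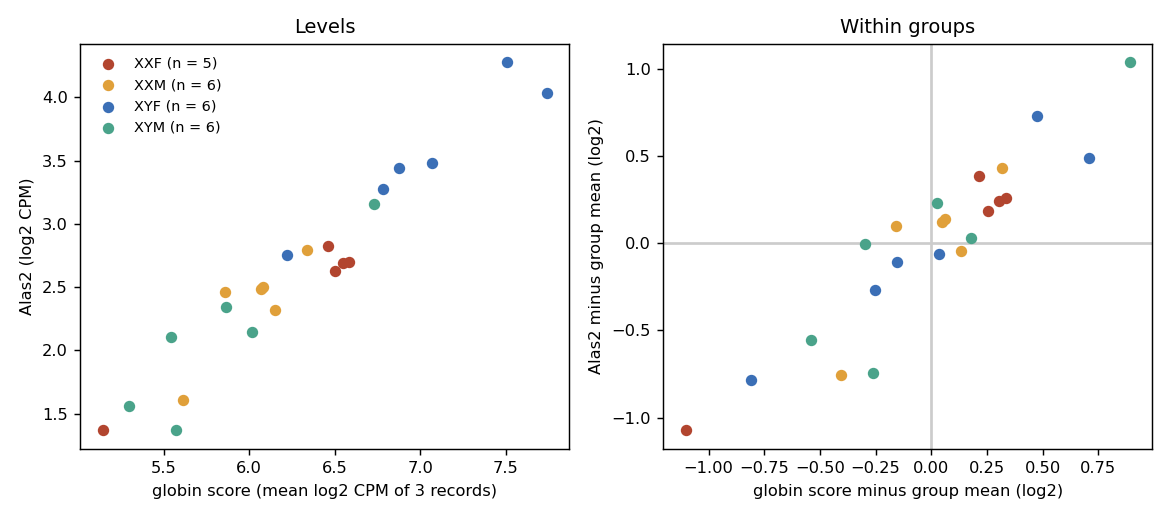
Alas2 (vertical axes, log2 CPM) against the globin score (horizontal axes, mean log2 CPM of Hba-a1, Hbb-b1 and Beta-s) in 23 libraries, as levels on the left and after subtraction of group means on the right. Colours mark XXF, XXM, XYF and XYM; the points follow a single rising band in both panels, with a correlation of 0.961 on the left and 0.927 on the right.

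Against sequencing depth, the correlation of the globin score with the log2 library total was -0.197 over all libraries and 0.132 within groups. The score averaged 7.03 ± 0.54 in XYF (SD, n = 6), 6.25 ± 0.62 in XXF (n = 5), 6.02 ± 0.25 in XXM (n = 6) and 5.84 ± 0.51 in XYM (n = 6). Group membership held 52.1% of the variance of the score, so nearly as much lay between animals of the same group.

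The balance of the chains shifted less than their level. The log2 ratio of summed beta records (Hbb-b1 and Beta-s) to summed alpha records (Hba-a1 and Hba-a2) was 0.75 ± 0.18 in XYF (SD, n = 6), 0.57 ± 0.18 in XXF (n = 5), 0.60 ± 0.13 in XXM (n = 6) and 0.59 ± 0.18 in XYM (n = 6). The ratio in XYF was above the others by about an SD. Summed levels were 285.4 ± 108.4 CPM of beta and 166.9 ± 54.2 CPM of alpha in XYF, against 121.5 ± 50.9 CPM of beta and 78.9 ± 28.3 CPM of alpha in XYM (n = 6 each). Between the beta records, Hbb-b1 minus Beta-s in log2 was -0.52 ± 0.09 in XYF, -0.59 ± 0.12 in XXF, -0.66 ± 0.09 in XXM and -0.73 ± 0.19 in XYM.

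Single globin records are uncertain, because their reads can belong to a copy. Between the Hba-a1 and Hba-a2 transcripts the open reading frames were 99.8% identical, and 56.5% of the 100-base windows of Hba-a1, the read length, also occurred in Hba-a2. For the Hbb-bt and Hbb-bs transcripts the identity was 99.8% and 54.8% of Hbb-bt windows occurred in Hbb-bs. Between alpha and beta (Hba-a1 and Hbb-bs) the identity was 57.8% with 0 shared windows, and between Alas2 and Alas1 it was 63.0% with 0 shared windows. Summing the records of a chain, which removes the split between copies, gave XYM minus XYF of -1.08 ± 0.22 for alpha and -1.23 ± 0.25 for beta. The Alas2 locus has an antisense neighbour, Apex2, which encodes a DNA repair endonuclease and overlaps it in the GENCODE gene coordinates. Reads of Apex2 could be counted with Alas2 where strand is not used, which was not tested. Apex2 measured 4.27 CPM on average and its difference XYM minus XYF was -0.02 ± 0.15, with a correlation of -0.30 with the globin score.

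Apart from the 4 records, Hba-a2 was the only gene that followed the globin score within groups at an edgeR adjusted p under 0.05, which is 0.00727% of the 13762 others, and 1440 of all 13766 records had an unadjusted p under 0.05. Hba-a2 (gene 110257, chromosome 11 from 32296492 to 32297310), the second alpha chain gene, averaged 32.5 ± 9.93 CPM in XYF (SD, n = 6), 20.2 ± 5.97 CPM in XXF (n = 5), 16.8 ± 3.14 CPM in XXM (n = 6) and 15.3 ± 6.90 CPM in XYM (n = 6). Its slope was 0.91 ± 0.07 log2 per log2 of the score (edgeR adjusted p = 3.11e-09), and against Alas2, which has no 100-base window in common with it, the slope was 0.76 ± 0.08 (edgeR adjusted p = 3.65e-06). Hba-a2 was also the only gene called for the Alas2 slope (0.00727%), with 952 records at an unadjusted p under 0.05. Neither slope is independent of Hba-a1, whose reads can be counted for its copy and which was picked for moving with Alas2. For Hba-a2 the difference XYM minus XYF was -1.07 ± 0.23, with an edgeR adjusted p of 0.0461. Since Hba-a1 was also picked for this group pattern, none of these p values for its copy is separate evidence. Of the globins outside red cells, neuroglobin (Ngb), found in neurons, averaged 3.70 CPM with a correlation of -0.45 with the score, and cytoglobin (Cygb) averaged 77.0 CPM with a correlation of 0.13. Hbb-b2, Hba-x, Hbb-y, Hbb-bh1 and Mb were not analysed here.

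None of the other haem synthesis genes passed the test of following the globins or Alas2. Of 14 genes on this list 13 were analysed, and edgeR called 0 of 13 for the globin score, the Alas2 slope or any of the group comparisons. Their median difference XYM minus XYF was -0.05 in log2, against -0.01 over all 13762 other records. Their median correlation with the globin score was 0.22, and that of all 13762 others was 0.02 with 5% below -0.44 and 5% above 0.46. The mean log2 CPM of the list had a correlation with the score of 0.608 over all libraries and 0.535 within groups (Spearman 0.464). The range over single genes is no background for the mean or the median of a list, here or below, and none was computed. The enzyme with the highest correlation was Uros, uroporphyrinogen synthase, at 0.46 with a difference XYM minus XYF of 0.08 ± 0.08. Fech, which inserts the iron as the last step, had a correlation of 0.39 and a difference of 0.04 ± 0.05. Urod, Cpox and Ppox, which act between these enzymes, had correlations of 0.28, 0.15 and 0.24 and differences of -0.15 ± 0.07, 0.01 ± 0.06 and 0.02 ± 0.12. Slc25a38, the mitochondrial glycine carrier that feeds the synthase, had the lowest correlation at -0.33, and Alas1 had 0.22 with a difference of 0.00 ± 0.05.

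Genes that break down haem and handle iron gave 16 analysed of 20, of which edgeR called 0 in any comparison or slope, with a median correlation of 0.19. The mean of the list had a correlation with the score of 0.631 over all libraries and 0.521 within groups. Blvra, a biliverdin reductase that follows haem oxygenase, had the highest at 0.58, and Lrp1, the receptor that takes up haem bound to haemopexin, the lowest at -0.52. Tfrc, the transferrin receptor by which cells import iron, had 0.50. Hmox1, the inducible haem oxygenase, had 0.26 at a mean of 6.19 CPM and a difference XYM minus XYF of -0.07 ± 0.13.

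Markers of red cells and their precursors had a median correlation with the globins near that of all genes. Of its 34 genes 18 were analysed, and several of these, such as Car2, are also known from neurons or glia. Among the others, the membrane and cytoskeleton genes Slc4a1 (band 3), Epb42, Epb41, Sptb, Rhag, Rhd and Kel, the alpha chain chaperone Ahsp, the transcription factors Klf1, Gata1 and Nfe2, and Trim10, Trim58 and Car1 were not analysed here. edgeR called 0 of the 18 in any comparison or slope. Their median correlation with the globin score was 0.05, from -0.59 for Xpo7, a nuclear export receptor, to 0.55 for Ube2l6, an enzyme that attaches the interferon-induced ISG15. The mean of the list had a correlation with the score of 0.408 over all libraries and 0.375 within groups. Fech and Tfrc are among the genes it shares with the haem and iron lists. The summed level of the 18 was 1697 to 1871 CPM in XYF and 1623 to 1928 CPM in XYM, so the groups overlapped.

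For other blood cells only a few markers could be used. Neutrophil genes gave 2 analysed of 10, Csf3r with a correlation of 0.18 and Cxcr2 with 0.24, and their sum was 21.2 to 24.6 CPM in XYF and 16.9 to 23.4 CPM in XYM. Platelet genes gave 2 of 10, Itga2b at -0.08 and Gp1bb at -0.12, and their sum was 7.58 to 11.9 CPM in XYF and 6.85 to 10.1 CPM in XYM. Monocyte genes gave 3 of 6, with Fn1 at -0.14 and Ly6c2 at 0.08, and a sum of 82.7 to 122.6 CPM in XYF and 81.0 to 111.3 CPM in XYM. Over all libraries Fn1 averaged 72.0 CPM, the remaining gene Vcan 32.8 CPM and Ly6c2 1.18 CPM. The sum is therefore mostly Fn1 and Vcan, and which cells these reads came from was not tested. The 13 lymphocyte genes of the list and the defining granule genes S100a8 and S100a9 were not analysed here. edgeR called 0 of these genes in any comparison or slope. Within groups the mean of each list had a correlation with the score of 0.262 for neutrophil, -0.128 for platelet and -0.012 for monocyte genes. The part of blood in the group differences of the globin records was not tested.

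Lists for cells of the vessel wall, the membranes and the choroid plexus had median correlations with the globin score from -0.03 to 0.19. Endothelial genes, 12 of 12 analysed, had a median correlation of -0.03, with Itm2a at 0.60 and Kdr, a receptor for vascular endothelial growth factor, at -0.56. Mural genes, 9 of 10 analysed, had a median of -0.01 with Rgs5 at 0.26 and Pdgfrb at -0.15, and fibroblast genes, 6 of 6 analysed, had 0.13 with Lum at 0.30 and Igf2 at 0.26. Choroid plexus genes, 8 of 10 analysed, had a median of 0.19 with the transthyretin gene Ttr at 0.27 and Kcnj13, a potassium channel gene, at 0.25. Their sum ran from 74.9 to 3438 CPM in XYF and from 56.1 to 2777 CPM in XYM, and the correlation of the globin score with their mean log2 CPM was 0.040 over all libraries and 0.194 within groups. The same measure within groups was 0.171 for endothelial, 0.009 for mural and 0.167 for fibroblast genes. edgeR called 0 genes of these 4 lists in any comparison or slope.

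Microglia were the cell type whose list had the highest median, 0.29 over 10 of 10 genes. The complement genes C1qa and C1qb had 0.61 and 0.54, while Sall1, a transcription factor of microglia, had -0.34. XYM minus XYF was lowest in the list for C1qa at -0.43 ± 0.11 and C1qb at -0.41 ± 0.11. The median of the list was -0.18, against -0.01 over all other records, with 2 of 10 above 0, among them Sall1 at 0.04 ± 0.08. edgeR called 0 of the 10 in any comparison or slope. The mean of the list had a correlation with the globin score of 0.655 over all libraries and 0.474 within groups. The summed level was 550.0 to 677.4 CPM in XYF, 503.6 to 608.7 CPM in XYM, 523.7 to 588.2 CPM in XXF and 512.2 to 605.8 CPM in XXM. Genes that answer to glucocorticoids, 13 of 13 analysed, had a median correlation of 0.15 with Hif3a at 0.41 and Tsc22d3 at 0.39. Their median difference XYM minus XYF was -0.34 in log2, with 12 of 13 below 0, against -0.01 over all other records. Their summed level had a median of 593.5 CPM in XYF (460.2 to 706.1) and 467.3 CPM in XYM (452.9 to 604.6), and their mean had a correlation with the globin score of 0.543 over all libraries and 0.262 within groups. The part of these genes in the globin differences was not tested. Genes that answer to hypoxia, 11 of 12 analysed, had 0.01 with Ndrg1 at -0.47 and Bnip3 at 0.39. edgeR called 0 of either list. For the 10 hippocampal and neuronal markers the median was -0.17, with Rbfox3 at -0.40 and Zbtb20 at -0.26.

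**Figure D4:**
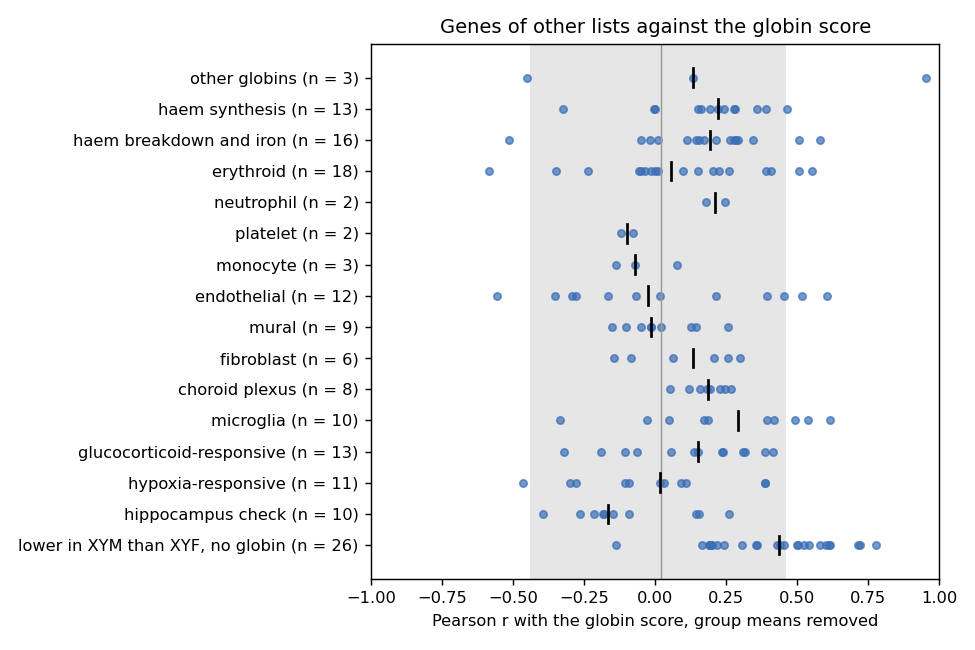
Correlation (horizontal axis, Pearson r over 23 libraries with group means removed) of single genes with the globin score, by list; each point is a gene, the black bar is the median of its list, the grey band holds the middle of all 13762 other genes from the 5th to the 95th percentile, and the grey line is their median of 0.021. Hba-a2 stands alone at 0.95, the blood and vessel lists spread about 0, and the genes lower in XYM than in XYF lie mostly to the right of 0.

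Outside these lists the genes most like the globin score in profile were H2-T23, a class I histocompatibility gene, at 0.78, Adora2b, an adenosine receptor gene, at 0.76, Pdss2, which works in ubiquinone synthesis, at 0.76, Eci1 and Ech1, enzymes of fatty acid oxidation, at 0.75 and 0.72, Pparg, a nuclear receptor, at 0.74, Gng5 at 0.74, Rnh1, an inhibitor of ribonucleases, at 0.74, and Lrrc57 at 0.73. The lowest were C530008M17Rik at -0.76, Met, a receptor tyrosine kinase, at -0.76, Fam57a at -0.74, Tln2, a talin, at -0.72, and Fam78b at -0.72. None of these passed the edgeR slope test at an adjusted p under 0.05. They are the ends of 13762 correlations over 23 libraries.

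The 31 records called lower in XYM than in XYF hold the 4 globin and Alas2 records, Hba-a2 and 26 others. Among the 26 were B2m, the light chain of class I molecules, with XYM minus XYF of -0.58 ± 0.09 and a correlation of 0.54 with the globin score, and Ifit3, induced by interferon, with -1.07 ± 0.18 and 0.72. Within groups the globin score correlated positively with 25 of the 26, Gm4070 being the exception at -0.14. Among all 13762 records outside the 4, it did so with 7260. The median correlation of the 26 was 0.435, with single genes from -0.14 to 0.777, so B2m and Ifit3 both lie above the median. Of the 26, 38.5% were above 0.5, against 3.1% of all 13762 others. The 26 were chosen by the same contrast that separates the globin levels, and many of them vary together, so this is a description of 1 shared profile and not a count of separate genes.

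With the globin score added to the edgeR fit as a covariate beside the groups, the number of genes called for the gonad effect went from 22 to 1 and that for XYM minus XYF, without the 4 records, from 27 to 0. The 27 differences all kept their sign, with a median size of 1.07 without and 0.73 with the score in log2. The SE of that comparison was larger by a factor of 1.38 in the median over all genes. For the sex chromosome effect the count went from 39 to 31, of which 30 were shared, and the SE factor was 1.05. Since 52.1% of the variance of the score lies between groups, the score and the groups cannot be fully told apart in this fit.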

How the data were processed

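Hippocampal RNA of 23 mice was sequenced as strand-specific paired reads. The labels' protocols name both a ribosomal RNA depletion and a kit for messenger RNA, and whether poly(A) RNA was also selected could not be settled. The authors deposited 1 table with an estimated count and a normalized log2 value per gene and library. Per the file headers, a gene stayed in the table if 1 group or more had a raw value of 20 or higher in 100% of its libraries. The submitters' processing notes name the mm10 build and DESeq, while aligner, counting program and use of strand were not given in the sources used here. Estimated counts were rounded. No value column lacked a library (0 columns).

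Counts were fitted with edgeR 4.0.16 (quasi-likelihood, trimmed mean of M-values) in R 4.3.3, with a mean per group (XXF 5, XXM, XYF and XYM 6 libraries each). Contrasts gave both main effects, their interaction and pairwise differences. The filterByExpr step removed none of the 13766 records. Adjusted p is Benjamini-Hochberg over all records, tests are 2-sided, the threshold was 0.05, and SE is the log2 difference divided by the square root of F. CPM uses the effective library size, and log2 CPM a prior count of 2. Slopes on the globin score or Alas2 were fitted beside the group means. Alternatives used limma 3.58.1, DESeq2 1.42.0, the deposited log2 values, other filters and leaving out each library. The fits were tested on simulated data.

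Members and lists were chosen with earlier results of these data known. Genes were named by rule: the 4 members, called genes of each slope, the 10 highest and 5 lowest correlations with the globin score, of each list its called genes or else the 2 with the largest correlation, other globins and the haem synthesis enzymes. B2m, Ifit3, Gm4070, Apex2, Tfrc, Hmox1, Slc25a38, Sall1, Vcan and Snap25 fall outside that rule and were added after their values were seen. The single values of some genes are not reported here. Sequences come from RefSeq (GRCm38.p6) and transcript lengths from GENCODE.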

Additional observations from a re-analysis of the deposited data

Results flagged for a closer look

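In 16 groups of libraries, 4 records by 4 groups, the highest or lowest library was compared with its nearest neighbour relative to the range of the group, a test in which chance marks about 1 in 20 groups. The 6 groups below were marked, and they come from 2 libraries in all, so they are not separate events.

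XXF replicate 5 stood low for each record. Hba-a1 was 42.4 CPM there against 87.8 CPM in the next library, Hbb-b1 25.2 against 68.4 CPM, Beta-s 41.0 against 105 CPM and Alas2 2.495 against 6.10 CPM. The gap was 0.745, 0.736, 0.873 and 0.798 of the range of the group, with a critical value of 0.71. Without this library the number of genes called by edgeR for the gonad effect was 85 in place of 22.

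XYM replicate 1 stood high for 2 records, Hba-a1 at 104.3 CPM against 68.6 CPM in the next library and Hbb-b1 at 91.8 against 50.3 CPM. The gap was 0.627 and 0.639 of the range, just above the critical value. The same library stood apart in markers of other cells: its choroid plexus genes summed to 2777 CPM against at most 210.3 CPM in the other 5 XYM libraries, and its fibroblast genes to 275.8 CPM against at most 128.5 CPM. Over all 23 libraries the globin score had a correlation of 0.040 with choroid plexus and 0.075 with fibroblast genes, and within groups 0.194 and 0.167. Without the 2 libraries farthest in score the values not centred by group were 0.259 and 0.438. Without XYM replicate 1, XYM minus XYF was -1.28 for Hba-a1, -1.65 for Hbb-b1, -1.38 for Beta-s and -1.70 for Alas2 in log2.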

How the results depend on the processing

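The direction of every member's difference XYM minus XYF, of both main effects and of XYF minus XXF was kept under each alternative tried and without each library, and the median residual correlation of the 6 member pairs was 0.908 to 0.943 without a single library, with 0.934 in all. The median member difference XYM minus XYF was -1.51 to -1.07 in log2 without a single library, against -1.25. The number of members called in that comparison was 1 with limma on the deposited log2 values and 0 to 4 without a single library, and the number of genes called there was 47 with DESeq2 in place of 31 and 19 to 50 without a single library. These 2 counts were added after the data were seen. DESeq2 called 60 genes for the sex chromosome effect in place of 39 and 98 for the gonad effect in place of 22, and the globin score as a covariate left 1. Without a single library the counts were 34 to 48 for the sex chromosome effect, 17 to 85 for the gonad effect (85 without XXF replicate 5, 49 without XYM replicate 1, 42 without XYF replicate 1, 34 without XYF replicate 5) and 0 to 3 for the interaction (3 without XYM replicate 1, 1 without XYF replicate 1). The globin score slope called 2 genes with limma voom and 1 to 5 without a single library (5 without XYF replicate 1), and the Alas2 slope 2 with limma voom and 1 to 5 (5 without XXM replicate 1), in place of 1. The cause of these shifts was not tested.

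No paired analysis was possible because the labels give no replicate numbers shared between groups. Precision is limited by 5 or 6 animals a group, by read sharing between globin copies, and for Alas2 by 31.0 counts in the lowest library. Cage, litter and residual blood were not analysed here.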
